A study of Sus scrofa with 9 samples.

Results

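The subject here is the set of 200 array probes whose signal in pig whole blood was higher at 6 h after an oral azide dose than both before feeding and at 24 h. They were selected on measured values, out of the 43566 rows of deposited values. For each row a score was formed on the log2 scale: the lowest of the 3 values at 6 h minus the highest of the 6 values before feeding and at 24 h. Rows with a mean deposited intensity of at least 50 at 6 h were kept, and the 200 highest scores above 0 were taken. The level minimum left 14195 rows, of which 843 (5.94%) scored above 0 and 200 (1.41%) became members. Every difference between 6 h and the other groups was therefore used in the choice and is given as a description, with no test.

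The series followed gene expression in peripheral blood of male specific-pathogen-free Clawn miniature pigs, a small laboratory breed. There were 3 groups of 3 arrays each: blood taken before feeding (0 h, no azide yet given), at 6 h and at 24 h after azide. The azide dose, whose salt the labels do not name, was 300 µg/kg by mouth, stated to equal 0.01 of the LD50. Animals are called 7 months old by some labels and 7 weeks old by others. Azide-free pigs do not enter the comparisons at the later times, and each group lay on a slide of its own, so dose, meal, time of day and slide cannot be told apart. The labels do not say which arrays came from one animal, so the p-values measure only the spread between these samples, which may be technical.

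Azide inhibits respiration in mitochondria at cytochrome c oxidase, the enzyme that hands electrons to oxygen. Whole blood mixes granulocytes, monocytes, lymphocytes, platelets and red cells, and the mix changes within hours with stress hormones, meals and time of day. Genes known to move over such times include brakes on inflammation, acute phase and heat shock proteins, chemokine receptors of neutrophils and glucocorticoid-controlled genes. In bulk blood, fewer or more cells of a type and less or more RNA per cell cannot be told apart.

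Levels below are log2 processed signals relative to each array's 75th percentile, so they compare arrays for 1 probe and not probes with each other. Between 39.9% and 56.6% of the spots on an array were well above background, and no member had a saturated spot. Probes for CD3D and CD14, markers of T cells and monocytes, were well above background on 8 or 9 of 9 arrays. No probe could be named for HBB, HBA, PF4, CSF3R or CD79A, so red cells, platelets, neutrophils and B cells were not checked by these genes. The precision of all values is limited by the 3 arrays in each group.

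Of the 200 members, 49 could be given a gene symbol, for 46 genes in all, and 30 of these names rest on a similar protein in the array's description. A further 106 are described only by a cDNA or EST clone, 21 by a similar protein with no symbol used here, and 24 have no description. All probes are 60 bases long. Because most members have no gene name, the sequences of some of them are printed here. The members ranked 1, 3 and 4 by score overlap in sequence and so read the same transcript, and they are printed with the run of 23 bases common to all 3 in capitals.
A_72_P352593: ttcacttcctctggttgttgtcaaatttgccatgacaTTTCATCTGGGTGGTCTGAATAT
A_72_P305059: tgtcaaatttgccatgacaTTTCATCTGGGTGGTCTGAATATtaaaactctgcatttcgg
A_72_P240177: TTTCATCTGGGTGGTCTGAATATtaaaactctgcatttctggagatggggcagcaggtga
The array describes A_72_P305059 by a mouse dendritic cell cDNA and the other two by an EST or not at all. The second-highest score belongs to a probe with no description.
A_72_P092246: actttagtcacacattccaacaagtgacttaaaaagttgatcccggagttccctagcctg
One pair of members reads opposite strands of the same sequence. The capitals mark the 33 bases of each whose reverse complement lies in the other.
A_72_P158981: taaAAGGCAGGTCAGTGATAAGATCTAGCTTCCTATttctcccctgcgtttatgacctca
A_72_P310323: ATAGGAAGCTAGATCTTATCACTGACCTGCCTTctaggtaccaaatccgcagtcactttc
The array carries a pair of probes for HSP70.2, an inducible heat shock chaperone, that share no run longer than 7 bases. Only the first of them is a member, and they are shown because their values are compared below.
A_72_P088236: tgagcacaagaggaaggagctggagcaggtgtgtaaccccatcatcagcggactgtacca
A_72_P015686: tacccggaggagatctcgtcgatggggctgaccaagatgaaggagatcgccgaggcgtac

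Over the members, the 6 h mean exceeded the mean before feeding by a median of 1.56 on the log2 scale, and single members lay between 0.79 and 5.34. The 24 h mean lay below the 6 h mean by a median difference of -1.53. For comparison, the median over all 19783 tested probes was 0.046 for 6 h minus before feeding and -0.092 for 24 h minus 6 h. As linear folds of the means at 6 h over before feeding, the members lay between 1.72 and 40.5, with a median of 2.95. There were 177 members with a difference of at least 1, 46 with at least 2 and 5 with at least 3. Those 5, singled out after their values were seen, are HP, HSP70.2, UPP1 and the unnamed A_72_P368263 and A_72_P290089.

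The 3 arrays at 6 h were unequal. Replicate 3 was the highest of them for 188 of the 200 members and replicate 2 the lowest for 138, while replicate 1 was the lowest for 59 and replicate 3 for 3. Measured against the mean before feeding, the median member stood 1.30 higher on replicate 1, 1.09 on replicate 2 and 2.24 on replicate 3, where the highest member, HP, stood 8.61 higher. The range between the 6 h arrays was 2 or more on the log2 scale for 28 members and under 0.5 for 21. The members' SD between arrays had a median of 0.27 before feeding, 0.60 at 6 h and 0.33 at 24 h, and that of all tested probes had medians of 0.36, 0.45 and 0.33 at those times. Since the score takes the lowest array at 6 h, replicate 2 set much of the choice: without it 2640 rows scored above 0 and only 45 of the 200 members stayed among the 200 highest, and without replicate 3 at 24 h 1381 rows scored above 0 and 108 members stayed. The same rule on the processed signals, scaled by the 75th percentile, kept 133 of the 200.

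The last member inside the choice, A_72_P157201, scored 0.3352 and the first outside, A_72_P076826, scored 0.3348. The levels of A_72_P157201 were 3.53, 4.30 and 3.76 before feeding, 5.08, 4.75 and 6.10 at 6 h and 3.35, 3.82 and 3.75 at 24 h. Those of A_72_P076826 were 1.73, 2.36 and 2.18 before feeding, 3.57, 2.93 and 4.57 at 6 h and 1.93, 2.41 and 2.43 at 24 h. Nothing separates them beyond the position of the limit, and 643 further rows scored above 0 outside the 200.

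The highest-scoring named member was IL1RN, the interleukin 1 receptor antagonist, a secreted protein that blocks the interleukin 1 receptor. Its log2 levels were 5.97, 6.76 and 6.13 before feeding, 8.18, 7.82 and 9.02 at 6 h and 6.05, 6.77 and 6.43 at 24 h. Every 6 h array lay above every other array by at least 1.05, while the groups before feeding and at 24 h overlapped almost fully. The mean at 6 h was 8.34 ± 0.61, against 6.28 ± 0.42 before feeding (SD, n = 3 each), a 4.16-fold difference.

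HSD11B2, the enzyme that turns active cortisol into inactive cortisone, came next among the named members. Its levels were -2.52, -1.50 and -1.73 before feeding, 0.16, -0.72 and 2.01 at 6 h and -1.65, -1.58 and -1.85 at 24 h. The 6 h arrays were far apart, and replicate 2 was less than 1 above the highest array before feeding. Another HSD11B2 probe, A_72_P165121, did not pass the level minimum and scored -0.084. It had -2.11, -2.42 and -1.66 at 6 h, against -5.01, -2.58 and -2.51 before feeding. At 6 h it was well above background on 2 arrays.

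A pair of members belong to the list of genes that glucocorticoids control. TXNIP, which binds thioredoxin and limits glucose uptake, had levels of 4.99, 5.24 and 4.74 before feeding, 6.80, 6.54 and 7.68 at 6 h and 5.35, 5.78 and 5.60 at 24 h. Its 24 h arrays all lay above its arrays before feeding, unlike those of IL1RN. PER1, a repressor in the circadian clock, is named here through a fish protein. It had levels of 2.01, 1.11 and 1.44 before feeding, 2.53, 2.69 and 3.03 at 6 h and 1.79, 1.81 and 1.84 at 24 h, so its 6 h arrays were close together with an SD of 0.25.

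HP, haptoglobin, a plasma protein that binds free haemoglobin and is stored in neutrophil granules, had the largest difference of means among the members. Its levels were -1.71, -0.31 and -0.51 before feeding, 5.13, 0.60 and 7.77 at 6 h and -0.23, 0.00 and 0.17 at 24 h. The mean difference of 5.34 joins very unequal arrays: replicate 2 at 6 h was only 0.44 above the highest 24 h array, and the SD at 6 h was 3.62. A second HP probe, outside the 200, gave the same order with 3.42, -1.50 and 5.99 at 6 h.

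The heat shock gene HSP70.2 had the same order of arrays at 6 h. Its member probe stood at 0.58, 1.53 and 1.76 before feeding, 5.73, 3.66 and 8.06 at 6 h and 1.34, 2.71 and 2.19 at 24 h. Replicate 3 exceeded replicate 2 by 4.39, and the 24 h arrays overlapped those before feeding. The other HSP70.2 probe, whose sequence is printed above, read too low before feeding to be well above background there. It had levels of 0.52, -2.68 and 3.07 at 6 h, where replicate 2 was not well above background either. Set against the lowest signal that counts as above background, its 6 h mean was 8.67-fold higher than before feeding. With that dim array in the mean, this is not a firm lower bound. The value on replicate 2 fell below the highest 24 h array, -2.60, so this probe did not meet the rule. HSP70.2 was the only member among the 11 genes of the heat shock and chaperone list past the level minimum.

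UPP1, uridine phosphorylase, which splits uridine into uracil and a sugar phosphate, was the third named gene with a wide spread. The array levels were 3.40, 4.23 and 3.68 before feeding, 7.63, 5.08 and 9.45 at 6 h and 3.60, 3.90 and 3.50 at 24 h. At 24 h all arrays were inside the range seen before feeding. A pair of other enzymes of nucleoside salvage are among the members and are named here after their values were seen. CDA, cytidine deaminase, had 4.0, 4.74 and 4.09 before feeding, 5.62, 5.67 and 6.54 at 6 h and 4.18, 4.77 and 4.81 at 24 h. PNP, purine nucleoside phosphorylase, had 4.68, 4.50 and 4.52 before feeding, 5.92, 5.46 and 7.06 at 6 h and 4.22, 4.35 and 4.0 at 24 h. For PNP all 24 h arrays lay below all arrays before feeding, and for CDA the groups overlapped.

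Receptors and motility genes of leukocytes were also present. CXCR2, the neutrophil receptor for interleukin 8, is named IL8RB on the array. It had levels of 6.37, 7.44 and 7.28 before feeding, 8.99, 8.62 and 9.81 at 6 h and 6.74, 7.82 and 7.51 at 24 h, a 4.31-fold difference of the means at 6 h over before feeding. MYO1F, an unconventional myosin that mouse neutrophils need to migrate, had 6.98, 7.73 and 7.62 before feeding, 8.64, 8.60 and 9.62 at 6 h and 6.98, 7.59 and 7.44 at 24 h. Both genes had replicates 1 and 2 close together at 6 h, with replicate 3 about a log2 unit above them. ITGAL, the alpha chain of the integrin LFA-1 that binds leukocytes to vessel walls, had 0.72, 2.07 and 1.92 before feeding, 2.71, 2.59 and 3.88 at 6 h and 1.06, 1.97 and 1.64 at 24 h. LGALS3, the sugar-binding galectin 3 of macrophages, had 4.57, 4.96 and 4.97 before feeding, 6.62, 6.34 and 7.43 at 6 h and 4.88, 5.46 and 5.41 at 24 h. Its other probes, A_72_P072386 and A_72_P211702, scored 0.27 and 0.32, just short of the 200.

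From the interferon response the members include IRF7 and OAS1. IRF7, the transcription factor that drives type I interferon genes, had levels of 5.53, 6.09 and 5.07 before feeding, 6.60, 7.49 and 7.37 at 6 h and 5.11, 5.93 and 5.37 at 24 h. Here replicate 2, not replicate 3, was the highest at 6 h, which held for only 2 of the 200 members. OAS1, the enzyme whose product activates RNase L against viral RNA, had -1.81, -1.89 and -3.14 before feeding, -0.75, -0.78 and -1.07 at 6 h and -2.38, -1.44 and -2.21 at 24 h. The other probes of both genes scored below 0, though their mean differences varied. A second IRF7 probe scored -0.61 and had a mean 0.77 higher at 6 h than before feeding, with 24 h arrays at 5.46, 5.89 and 4.03 that overlap its 6 h arrays at 5.69, 5.86 and 5.95. The OAS1 probe A_72_P293394 had 5.43, 5.22 and 5.50 at 6 h, against 5.49, 5.75 and 5.16 before feeding, and so showed no higher level at 6 h. Another OAS1 probe, A_72_P223657, had 3.04, 3.51 and 2.84 at 6 h, against 2.49, 2.32 and 0.45 before feeding, a mean difference of 1.38 beside 1.41 for the member probe. All its 6 h arrays lay above those before feeding, but the 24 h arrays, at 1.78, 2.98 and 2.21, overlapped those at 6 h.

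Survival genes were represented by MCL1 and CFLAR. MCL1, a BCL2 relative that keeps neutrophils and other cells alive, had levels of 3.19, 3.38 and 3.04 before feeding, 4.68, 4.37 and 5.77 at 6 h and 2.96, 3.48 and 3.66 at 24 h. Another MCL1 probe, A_72_P035761, differed less, with a mean 0.82 higher at 6 h than before feeding and a score of -0.38. CFLAR, which blocks caspase 8 at death receptors, had 3.41, 3.83 and 3.65 before feeding, 4.51, 4.38 and 5.47 at 6 h and 3.24, 3.68 and 3.58 at 24 h. NIBAN1, a protein induced by cell stress, had a pair of member probes. A_72_P141156 stood at 6.24, 7.60 and 7.23 before feeding, 8.96, 8.50 and 10.18 at 6 h and 6.30, 7.31 and 7.24 at 24 h, and the 6 h means of the pair were 2.19 and 2.15 higher than before feeding.

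Metabolic and signalling members included PLIN3, GRB10 and PNPLA2. PLIN3, a coat protein of lipid droplets, had levels of 3.17, 3.27 and 3.22 before feeding, 5.02, 4.25 and 6.75 at 6 h and 2.95, 2.96 and 3.38 at 24 h. Its arrays before feeding were within 0.10 of each other while those at 6 h spanned 2.50. GRB10, an adaptor that binds the insulin receptor, had -0.63, -0.20 and -0.38 before feeding, 0.90, 0.48 and 2.71 at 6 h and -0.76, -0.39 and -0.15 at 24 h. PNPLA2, the lipase that starts the breakdown of stored fat, had 3.52, 3.87 and 4.04 before feeding, 4.77, 4.63 and 5.70 at 6 h and 3.73, 3.93 and 3.75 at 24 h. The 3 further PNPLA2 probes scored between -0.55 and -0.24.

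The last group of high-scoring named members act on chromosomes, transcription and sugar chains. MSH6, which recognises mismatched DNA bases, had -1.82, -1.60 and -1.81 before feeding, -0.62, -0.86 and -0.87 at 6 h and -2.04, -1.78 and -2.04 at 24 h. Its difference of 0.96 is one of the smaller ones, and its 6 h arrays are among the closest. REC8, a cohesin subunit known from meiosis, had 4.49, 4.66 and 4.16 before feeding, 5.77, 5.53 and 6.99 at 6 h and 4.09, 4.58 and 4.11 at 24 h. CREBBP, a histone acetyltransferase that many transcription factors recruit, had 0.03, 0.11 and 0.48 before feeding, 1.71, 1.45 and 2.93 at 6 h and 0.07, 0.73 and 0.78 at 24 h. B3GALT4, which adds galactose to gangliosides, had 2.29, 2.48 and 2.28 before feeding, 3.11, 3.23 and 3.67 at 6 h and 2.04, 2.12 and 2.25 at 24 h. Second member probes of REC8 and B3GALT4, which share 28 and 41 bases with the first, had mean differences of 1.71 and 0.99 at 6 h, against 1.66 and 0.98 for the first.

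Further named members were picked for the text after their values were seen, for what they are known to do in blood cells. S100A11, a calcium-binding protein, had levels of 4.92, 4.96 and 4.88 before feeding, 6.45, 5.84 and 7.46 at 6 h and 4.62, 4.86 and 5.0 at 24 h, and its other probes had means 1.96 and 2.01 higher at 6 h than before feeding. On the levels given here all 6 h arrays of these 2 probes lay above the other 6, but on the deposited values that set the score they did not. Before feeding the arrays spanned only 0.073 for the member probe of S100A11. SH3BP5, which binds the kinase BTK, had 4.10, 5.42 and 4.52 before feeding, 7.41, 6.13 and 8.48 at 6 h and 4.32, 5.0 and 4.71 at 24 h. KLF7, a zinc-finger transcription factor, had -1.83, -2.40 and -2.62 before feeding, -0.64, -1.29 and 0.09 at 6 h and -2.15, -1.70 and -1.74 at 24 h, and its second probe scored 0.18. PRDM1 stood at 1.11, 1.59 and 2.67 at 6 h, and its mean there was 2.22 above that before feeding. A further 14 named members had differences between 6 h and before feeding that ranged between 0.79, for RAB5C, a regulator of early endosomes, and 1.71, for the zinc-finger protein ZNF467.

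Among the unnamed members, the triple of overlapping probes printed above agreed closely. A_72_P305059 had levels of 3.13, 3.91 and 3.44 before feeding, 5.21, 5.29 and 6.38 at 6 h and 2.70, 3.77 and 3.63 at 24 h. The mean differences of the triple at 6 h were 2.13, 2.17 and 2.12, so they count as 1 transcript measured repeatedly. A_72_P092246 was dim, at -2.97, -3.66 and -2.69 before feeding, -1.02, -1.23 and -0.41 at 6 h and -2.74, -2.38 and -3.31 at 24 h. None of its arrays before feeding was well above background, so its 6 h mean is given as at least 3.37-fold higher, and 3 other members in the same position had bounds between 3.34 and 3.62. The member at 3.62 was well above background on only 2 arrays at 6 h, so its bound is not firm.

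A pair of unnamed members stood out by size and are given after their values were seen. A_72_P368263, described by an EST, had 2.17, 3.60 and 3.01 before feeding, 6.08, 5.07 and 7.94 at 6 h and 2.79, 3.62 and 3.84 at 24 h. A_72_P290089, described by a liver clone, had -1.01, -0.26 and -0.85 before feeding, 2.26, 0.69 and 3.94 at 6 h and -1.33, -0.38 and -0.73 at 24 h. Both had replicate 3 highest and replicate 2 lowest at 6 h, with means 3.44 and 3.0 above those before feeding. The opposite case is A_72_P304679, rank 5 by score and described by a human calcium channel subunit, whose 6 h arrays at 2.25, 1.95 and 2.30 were within 0.34 of each other. Its levels were 0.10, 0.36 and 0.37 before feeding and -0.57, 0.83 and 0.53 at 24 h.

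The members on opposite strands gave like patterns. A_72_P158981 had 0.41, 1.43 and 0.98 before feeding, 2.89, 2.58 and 3.96 at 6 h and 1.25, 1.74 and 1.93 at 24 h. A_72_P310323 had 3.15, 4.35 and 3.59 before feeding, 5.38, 5.49 and 7.02 at 6 h and 3.39, 4.29 and 4.56 at 24 h. Which strand the sample's RNA comes from was not analysed here. The unnamed A_72_P371148 shares 52 bases with the probe of PLCD1, a phospholipase C, and the 6 h means of the pair were 1.13 and 1.09 above those before feeding. In all, 10 pairs of members share at least 20 bases on the same strand and 1 pair on opposite strands. With shared accessions, symbols and overlaps joined, the 200 members stand for 189 transcripts, and with 1 probe for each the median difference between 6 h and before feeding is 1.56 as before.

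Overlap did not always bring the same result. A_72_P416268, a member, had -1.70, -1.97 and -1.78 before feeding, -0.77, -0.78 and -0.70 at 6 h and -1.81, -2.05 and -2.25 at 24 h. Another probe, A_72_P110436, shares 52 of its 60 bases and yet scored -0.30, with -1.36, -1.09 and -1.38 before feeding, -0.83, -1.35 and -0.69 at 6 h and -1.47, -1.80 and -1.87 at 24 h. The member's 6 h arrays were within 0.08 of each other while those of the other probe spanned 0.66, with replicate 2 as low as before feeding.

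For 14 of the named genes other probes past the level minimum exist outside the 200, 20 probes in all. Of these, 19 had a higher mean at 6 h than before feeding. Only 5 of the 20 (25%) scored above 0, where 5.94% of all rows past the level minimum did. The 20 were taken for sharing a gene with a member that the rule chose, so nothing is read from these counts and shares. The 5 belong to HP, KLF7, LGALS3 and TXNIP. For the other 10 genes, HSP70.2, IRF7, MCL1, OAS1, PLIN3, PNPLA2, POU2F2, PSAP, S100A11 and SP1, every other probe scored 0 or below on the deposited values. On the scaled processed signal, 4 of these probes, belonging to MCL1, PLIN3 and S100A11, did have all 6 h arrays above the other 6. More probes met the rule above 0 on that signal in general, 1237 against 843 on the deposited values. For the remaining 7 genes only the member probe stood apart on either scale. The widest gaps were those of MCL1, with a member probe at 0.41 and another at -1.21, and of PSAP, a precursor of lysosomal activator proteins, with a member probe at 0.34 and another at -1.25.

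Gene lists for blood cells and for immune, stress and metabolic processes gave the pathway around these members. Of 982 listed genes, 315 had a named probe past the level minimum. Of the 315, 13 (4.13%) were members, where 1.41% of all rows past that minimum were. A probe scoring above 0 was found for 48 of the 315 (15.2%, against 5.94% of all rows past that minimum). A gene may have several probes and the comparison was used in the choice, so nothing is read from these shares. Of the 34 lists, 15 held a member and 19 held none.

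In the interferon list, 7 of 19 genes had a probe scoring above 0, among them the members IRF7 and OAS1, and EIF2AK2 and IFITM1. In the NF-kB list it was 4 of 8, the member CFLAR with IKBKB, NFKB1 and NFKBIA. In the neutrophil granule list it was 3 of 12, the member HP with CHI3L1 and NPG4. The interleukin 1 and inflammasome list had 2 of 4, the member IL1RN with IL1A. These lists are examples, and others had 3 of 6 (immediate early), 4 of 27 (lipid handling) and 1 of 15 (redox defence). A gene may have several probes, with 35 in the interferon list, and the score made the choice. Nothing is therefore read from these counts. No gene past the level minimum scored above 0 in 12 of the 34 lists. With 5.94% of rows past that minimum above 0, nothing is read from these 12 lists. Their median difference between 6 h and before feeding was above 0 in 5, among them 0.92 for proteases, inhibitors and matrix and 1.58 for phagocyte oxidase, and below 0 in 7. The median difference between 6 h and before feeding was -0.67 for the ribosome list and -0.77 for the cytochrome c oxidase list, whose enzyme is the target of azide. It was -0.75 for the T cell list, -0.75 for the NK and cytotoxic list and -0.72 for the cell division list. Other lists thus had medians near that of cytochrome c oxidase. These medians rest on few tested genes, 6 for cytochrome c oxidase and 3 for NK and cytotoxic, and their cause was not tested.

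Marker lists of some cell types stood apart at 6 h, and those of others overlapped between the groups. With the members left out, the mean level of 11 neutrophil granule genes lay between 4.12 and 4.32 on the arrays before feeding, 5.15 and 6.14 at 6 h and 4.32 and 4.52 at 24 h. For 6 neutrophil surface and chemotaxis genes the arrays lay between 3.14 and 3.70 before feeding, 4.36 and 5.40 at 6 h and 3.56 and 3.83 at 24 h. These neutrophil lists were higher on every 6 h array than on any other array. For 17 markers of monocytes and macrophages, of 29 listed and with LGALS3 read by its other probe, the arrays lay between 2.14 and 2.54 before feeding, 2.97 and 3.79 at 6 h and 2.33 and 3.24 at 24 h. For 10 T cell genes the arrays lay between 2.68 and 3.1 before feeding and between 1.77 and 2.72 at 6 h. At 24 h they lay between 2.73 and 2.78. Replicate 2 at 6 h, at 2.72, lay above replicate 2 before feeding, at 2.68, so these groups overlapped. The remaining lists overlapped between before feeding and 6 h as well. Platelet markers lay between 1.89 and 4.15, then 3.14 and 4.03, and B cell markers between 2.35 and 2.98, then 1.82 and 2.71. NK markers lay between 2.55 and 3.88, then 1.69 and 2.91. Eosinophil, basophil and mast cell markers lay between 1.63 and 1.96, then 1.86 and 2.55. The red cell marker lay between 7.37 and 7.90, then 6.84 and 7.76. Only 12 of 40 granule genes, 7 of 21 surface genes and 10 of 28 T cell genes could be tested, and the red cell list rests on HBE1 alone. The part of these shifts in the members' pattern was not tested.

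The rule also used the arrays before feeding and at 24 h, since the highest of these 6 had to lie below every array at 6 h. It therefore favours probes with like levels in both groups and disfavours probes still raised at 24 h. The members' values at 24 h against before feeding are given as a description, with no test, and do not show a return to the starting level. Over all 19783 tested probes, limma called 0 (0%) at a Benjamini-Hochberg adjusted p under 0.05 for 24 h minus before feeding, and 2745 (13.9%) had an unadjusted p under 0.05. Centring on spike-in probes instead moved the median of all tested probes at 24 h to 0.99 above before feeding. On that scale 5743 probes were called, and the members' own median was 0.99.

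The members' median difference was -0.013 for 24 h minus before feeding, and it was -0.011 for all tested probes. The 24 h mean was above that before feeding for 94 members and below it for 106, and it lay within 0.5 for 180 of the 200. In 165 members the 24 h difference was under 0.25 of that at 6 h in size, and in 2 it was over 0.5 of it. Single members lay between -0.98 and 0.95 for 24 h minus before feeding. All 24 h arrays lay above all arrays before feeding for 9 members (4.5%, against 7.5% of all tested probes) and below them for 10 (5%, against 19%).

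Named here are the 4 members with a symbol that ranked first for 24 h minus before feeding by limma's p-value, used only to order them. DENND5A, an activator of Rab proteins in membrane traffic, had 1.79, 2.93 and 2.43 at 24 h, against 3.28, 3.85 and 2.96 before feeding. Its difference was -0.98 ± 0.47 (SE, n = 3 each), and centring on the spike-in controls turned the sign, to 0.023. PRDM1 is the transcriptional repressor Blimp-1, which acts in plasma cell and T cell differentiation. It had -0.06, 0.62 and 0.66 at 24 h, against -0.55, -0.76 and 0.02 before feeding, a difference of 0.84 ± 0.42 (SE, n = 3 each). TXNIP, described above, had a difference of 0.59 ± 0.33 (SE, n = 3 each). EPN2, an adaptor of endocytosis, had a difference of 0.86 ± 0.68 (SE, n = 3 each). Its first array before feeding read -4.46 where the other two read -1.59 and -1.72, and without that array its difference was -0.079.

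Features that the choice did not use are the sequence of the probes and the clones behind them. The GC content of the probes had a median of 41.7% in the members and 40% in the rows past the level minimum. The motif AATAAA, the usual signal for the end of a transcript, occurs on the printed strand of 52 members (26%) and of 18.4% of those rows, and on the other strand of 3.5% of members and 5.23% of rows. The motif ATTTA occurs on the printed strand of 19 members (9.5%) and of 10.1% of the rows. On the other strand it occurs in 16% of members and 14.6% of rows. The motifs can overlap, and a match is a description of these 60 bases only. Of the 54 members described by a full-length clone from a named library, 20 came from ovary, 8 from liver, 7 from thymus, 6 from spleen, 4 from alveolar macrophage and 3 from blood mononuclear cells. Ovary clones are 37% of these members and 28% of the 2989 such rows past the level minimum. The library is where the clone was first found and says nothing of its source in these samples.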

How the data were processed

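RNA from PAXgene whole blood was labelled with Cy3 and hybridised to 1 porcine Agilent array a sample, per the labels' protocols. The deposited scanner files hold processed spot intensity, background-subtracted and not scaled between arrays per the file headers, which name Feature Extraction 10.5.1.1; the submitters' processing notes name 9.5.3.1. The deposited series-wide values are intensity on a linear scale, read so from the values, with 1 maximum shared by all 9 arrays and medians near 11.4. Their log2 gave the score. What the authors did to obtain them is not given in the sources, and they rank as the processed signals do.

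Control and outlier spots were left out, spots of a probe averaged, and levels taken as log2 of the processed signal, less the array's 75th percentile. A probe entered the test if all 3 arrays of some group had it well above background, which 19783 did. One limma model (version 3.58.1 in R 4.3.3) held all 9 arrays and no term but group; its degrees of freedom were 6 residual and 4.607 prior. The fit was also run on simulated data with 19783 probes and noise drawn independently for each probe and array. Slides and links between probes were not simulated, so nothing about the real calls is concluded from that run. The threshold was an adjusted p of 0.05. The rule used all 3 groups, so members have no test of their own. Where no array of a group had a probe well above background, its fold is a lower bound ("at least"), set against the higher of its own signal and the lowest well above background on each array. Such a bound is firm only where all 6 h arrays were well above background.

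Symbols came from gene names, accessions matched to the given tables and descriptions, for 3213 of 43603 probes. Descriptions were matched by hand after the members were seen, so shares of named probes are not compared. No genome was used, and the values of some named genes are not reported here. Members and lists were chosen with earlier results of these data known. Named genes were the 12 highest scores with a symbol, up to 4 per list, 3 unnamed, those at the limit, up to 6 genes with several probes and 4 at 24 h; exceptions are marked. A gene in a marker list was read by its brightest tested probe and left out where that is a member. Alternatives were other scalings, filters and fits, a replicate block and leaving out each array; 1 probe per transcript and other probes of a gene were added after seeing the data. Same-numbered arrays correlated between -0.20 and 0.64 in their deviations from the group means, and differently numbered arrays between -0.63 and 0.43. The same-numbered values were not over 0.1 in every pair, so numbers were not taken as pairs. This does not show that the arrays are unpaired. Python 3.11.15, pandas 2.3.3, numpy 2.4.6 and the R package data.table (version 1.17.8) were used.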

Additional observations from a re-analysis of the deposited data

How the results depend on the processing

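The size and makeup of the set depend on single arrays: leaving out each array gave 880 to 2640 rows scoring above 0 (843 with all 9), with 1381 without 24 h replicate 3 and 2640 without 6 h replicate 2. Between 45 and 191 of the members stayed among the 200 highest, 45 without 6 h replicate 2 and 108 without 24 h replicate 3. Choosing on the processed signal minus the 75th percentile kept 133 of the 200. Every 6 h array lay above the other 6 for all 200 members on the processed signal scaled by the 75th percentile, quantile or median, for 199 with that percentile taken over always-detected probes, 188 with normexp and 76 with centring on the spike-in controls. That centring moved the median of all tested probes to 0.27 for 6 h minus before feeding and 0.99 for 24 h minus before feeding. Under it the members' median was -0.76 for 24 h minus 6 h and 0.99 for 24 h minus before feeding; less the median of all probes these were -1.43 and -0.0026. Leaving out each array gave members' medians of 1.18 to 1.79 for 6 h minus before feeding, -1.76 to -1.19 for 24 h minus 6 h and -0.11 to 0.15 for 24 h minus before feeding. For 24 h minus before feeding, limma called 6 probes with quantile normalization, 6 with the deposited values and 5743 (66 members) with spike-in centring. It called 0 probes and 0 members with a replicate block, without any 1 array and under the other filters, fits and scalings; the rule itself bears on the members' counts. DENND5A turned to 0.023 with spike-in centring. EPN2 turned to -0.15 with normexp and to -0.079 without before feeding replicate 1, and its difference reached 1.36 without another array. Of the 200 members, 184 were well above background on all 9 arrays, and background limits the others.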
